A study of Mus musculus with 20 samples.

Results

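The glutathione S-transferase Mu family of the mouse was followed in the liver after repeated oral exposure to benzo(a)pyrene (BaP), a polycyclic aromatic hydrocarbon that liver enzymes turn into DNA-reactive epoxides. The family was taken as the 7 genes *Gstm1* to *Gstm7*, and a probe belonged to it when its annotated transcript mapped to one of these symbols. This gave 9 probes among the 41174 probes of the array, 2 each for *Gstm1* and *Gstm7* and 1 for every other gene, and all 9 were present (brighter than the array's negative controls in 4 or more of the 5 mice of some group). The 7 genes are among 12986 genes with a present probe. The animals were 20 males of the Muta™Mouse line, strain 40.6, aged 25 weeks, which carries a bacterial *lacZ* reporter for mutation in every group, controls included. For 28 days 5 mice received olive oil by gavage and 5 each received BaP in oil at 25, 50 or 75 mg/kg/day, and tissue was taken 3 days after the final dose, so that all values describe the liver after a pause in dosing. The RNA of each liver was labeled with Cy5 and hybridized once, with Cy3-labeled universal mouse reference RNA pooled from cell lines, so that the value of a probe is a log2 ratio of liver over reference. One label field names lungs, whereas the tissue field and the study's methods name liver. Of 8 hepatocyte markers 7 had a present probe, with control log2 ratios of 3.56 to 7.53 and mean log2 intensities of 10.21 to 16.31. Of 5 lung epithelium markers 3 had one (*Sftpa1*, *Scgb1a1* and *Ager* but not *Sftpc* and *Sftpb*). Their control ratios were 0.44, 0 and -0.40 and their mean log2 intensities only 6.25 to 6.33, so the samples were read as liver.

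Mu class transferases are cytosolic enzymes that join glutathione to electrophiles, among them the diol epoxides formed from BaP, and so take part in the second phase of xenobiotic metabolism. In rodent liver several of them are abundant, and their genes are known targets of the sensors of electrophiles and drugs, NRF2 and CAR. The members lie side by side as the products of gene duplication, and their transcripts are similar enough that a probe for one may bind RNA of another. The sequences of the array probes were not analysed here, so how much of any value below came from a sister gene was not tested.

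In the reference annotation (RefSeq, GRCm38.p6) the family fills 149.3 kb of chromosome 3, from 107895854 to 108045179, with *Gstm5* on the plus strand at one end and the other 6 genes on the minus strand. For orientation, the 250 bases before the annotated start are shown for *Gstm4* and *Gstm3*, the members with the largest differences at the highest dose, and for *Gstm5*, the member with the smallest. They were searched on both strands for the core of the antioxidant response element that NRF2 binds (TGACNNNGC) and for the core of the xenobiotic response element that the aryl hydrocarbon receptor binds (GCGTG), and capitals mark the matches. The *Gstm4* stretch is chr3:108044860-108045109, the *Gstm3* stretch chr3:107969175-107969424 and the *Gstm5* stretch chr3:107895604-107895853, each written 5′ to 3′ in the direction of the gene.
Gstm4: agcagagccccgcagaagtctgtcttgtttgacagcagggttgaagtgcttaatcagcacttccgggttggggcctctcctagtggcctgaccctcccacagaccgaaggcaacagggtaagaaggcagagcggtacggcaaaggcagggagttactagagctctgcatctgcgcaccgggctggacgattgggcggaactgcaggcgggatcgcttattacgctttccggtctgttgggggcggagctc
Gstm3: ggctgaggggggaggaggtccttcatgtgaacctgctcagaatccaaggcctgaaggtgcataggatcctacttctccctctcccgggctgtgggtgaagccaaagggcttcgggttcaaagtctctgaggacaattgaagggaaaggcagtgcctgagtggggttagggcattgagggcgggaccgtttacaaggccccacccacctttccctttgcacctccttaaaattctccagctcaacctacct
Gstm5: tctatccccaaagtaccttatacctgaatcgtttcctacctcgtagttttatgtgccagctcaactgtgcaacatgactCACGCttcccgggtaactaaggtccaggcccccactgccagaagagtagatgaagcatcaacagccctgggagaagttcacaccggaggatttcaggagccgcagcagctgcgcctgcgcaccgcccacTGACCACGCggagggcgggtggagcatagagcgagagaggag
Neither core occurred in the stretch of *Gstm4* or *Gstm3*. That of *Gstm5* held 1 antioxidant core, 42 bases before the start, and 2 xenobiotic cores, of which the one nearer to the start overlaps the antioxidant core. Of the other members, *Gstm1* had a xenobiotic core 76 bases before its upstream start and *Gstm7* had an antioxidant core 129 bases before the downstream of its starts, while the stretches of *Gstm2* and *Gstm6* had none of either. Among 32841 mouse promoters of this length, 10.2% held the antioxidant core and 28.2% the xenobiotic core, so these matches describe the letters alone.

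Every Mu class probe had a higher mean ratio at 75 mg/kg/day than in the controls, but only *Gstm4* rose by the criteria applied to all probes (a fold change above 1.5 with an adjusted p below 0.05). That is 1 of 9 probes called, where 0.132% of the 27346 present probes were called as higher and 0.00366% as lower. At 25 and at 50 mg/kg/day no family probe was called and 0% of all probes were. The median log2 fold change over the 7 genes, each taken by its brightest probe, was 0.24 at 25, 0.29 at 50 and 0.57 at 75 mg/kg/day, where the median over all genes was -0.01, -0.01 and 0.00. All 3 doses were set against the same 5 control arrays, so their changes are not independent of one another. In bulk liver RNA, more cells that carry a transcript and more transcript per cell cannot be told apart.

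**Figure D1:**
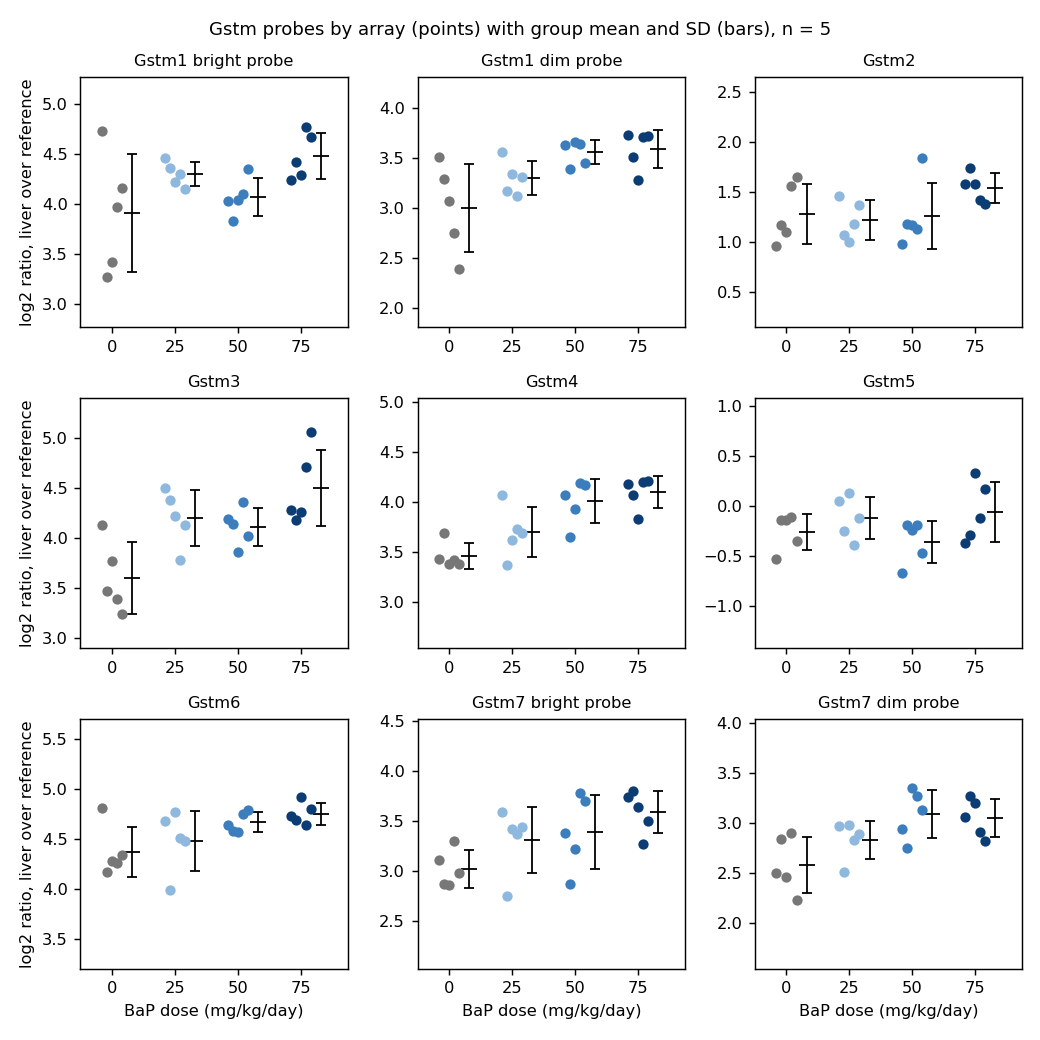
Log2 ratio of liver over reference (vertical axis, 1 panel per probe, each spanning the same range) against BaP dose, with 1 point per array and bars for the group mean and SD of 5 mice. The 5 arrays at 75 mg/kg/day lie above all 5 controls for *Gstm3* and *Gstm4*, and the control points of the bright *Gstm1* probe spread from 3.27 to 4.73.

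The arrays were of similar depth. In the liver channel 51.9 to 67.5% of spots exceeded background clearly, the highest share being that of control replicate 4, and the liver signal over background had array medians of 1.29 to 1.72. The liver signal of all 9 family probes was well above background on 20 of 20 arrays, with 0 saturated spots and 0 outlier spots. The arrays sat on 6 slides, each scanned at 1 time. Slides 1, 2 and 3 held 1 array of every group. Slides 4 and 5 held only 25 and 75 mg/kg/day arrays and slide 6 only controls and 50 mg/kg/day arrays, so on these slides slide and dose are partly mixed. All 25 mg/kg/day samples were in position 2 of their slides and all 75 mg/kg/day samples in position 4. Controls were in position 1 except replicate 2 (position 2), and 50 mg/kg/day samples in position 3 except replicate 13 (position 4). Position thus rose with dose, within slides too. A change with dose, the dose trend included, therefore cannot be told apart from a change with position.

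*Gstm4* was the one member that passed. Its log2 ratios in the control mice were 3.43, 3.69, 3.39, 3.42 and 3.39 (mean 3.46 ± 0.13, SD, n = 5). At 75 mg/kg/day they were 4.18, 4.07, 3.84, 4.20 and 4.22 (mean 4.10 ± 0.16, SD, n = 5), above every control in 5 of 5 mice, as 0.937% of all complete probes were. The rise was 0.64 on the log2 scale (SE 0.13, 95% confidence interval 0.38 to 0.90), a fold change of 1.56 with an adjusted p of 0.0401 from limma. At 50 mg/kg/day the values were 4.07, 3.66, 3.93, 4.20 and 4.18, of which 4 of 5 lay above all controls, for a difference of 0.54 log2 units (SE 0.13) and an adjusted p of 0.433. At 25 mg/kg/day they were 4.08, 3.37, 3.63, 3.74 and 3.70, with a log2 fold change of 0.24 (SE 0.13). Dose taken as a number gave a slope of 0.22 log2 units per step of 25 mg/kg/day (adjusted p = 0.0105), the one family probe with a trend, against 0.154% of all probes with a rising one. Within the 3 slides that held both a control and a 75 mg/kg/day array, the exposed liver was higher by 0.65, 0.45 and 0.75. With slide as a fixed block the call was lost (log2 fold change 0.55, adjusted p = 0.117), and with slide as a random block it was kept (0.61, adjusted p = 0.0315). The call at 75 mg/kg/day stood close to the threshold, since it held in 8 of 20 fits that left out 1 array. It was lost without control replicate 1, 3, 4 or 5 (adjusted p 0.0599, 0.0678, 0.079 and 0.133) and without 25 mg/kg/day replicate 9 or 10 (0.0565 and 0.0561). The same held without 50 mg/kg/day replicate 11 or 13 (0.0597 and 0.0544) and without 75 mg/kg/day replicate 16, 17, 19 or 20 (0.08, 0.0888, 0.058 and 0.135). The log2 fold change of *Gstm4*, which omission of a 25 or 50 mg/kg/day array cannot move, was 0.61 to 0.70 over all 20 fits. The trend kept an adjusted p of at most 0.0381 in all 20 of them.

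*Gstm3* had the largest difference of the family but a wider spread. The control ratios were 4.13, 3.47, 3.77, 3.38 and 3.24 (mean 3.60 ± 0.36, SD, n = 5). Those at 75 mg/kg/day were 4.28, 4.18, 4.26, 4.71 and 5.06 (mean 4.50 ± 0.38, SD, n = 5), again 5 of 5 above all controls. The log2 fold change was 0.90 (SE 0.18, 95% confidence interval 0.52 to 1.28), 1.86-fold, and its adjusted p of 0.0511 lay just outside the limit. The values at 25 mg/kg/day were 4.50, 4.38, 4.22, 3.78 and 4.13, and those at 50 mg/kg/day were 4.19, 4.14, 3.86, 4.36 and 4.02. At these doses 4 of 5 and 3 of 5 mice lay above all controls, with log2 fold changes of 0.60 (SE 0.18, adjusted p = 0.636) and 0.52 (SE 0.18, adjusted p = 0.676). The highest control was replicate 1, and without it *Gstm3* was called at 75 mg/kg/day (log2 fold change 1.03, adjusted p = 0.0152), as it was without 25 mg/kg/day replicate 9 (0.90, adjusted p = 0.0451). On the slide of control replicate 1 the difference at 75 mg/kg/day was 0.15, against 0.80 and 1.02 on the other slides. With slide as a fixed block the change was 0.66 (adjusted p = 0.101), and with slide as a random block it was called at 0.82 (adjusted p = 0.032).

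*Gstm1*, a Mu transferase known as one of the major ones of mouse liver, was read by 2 probes. The bright probe gave 4.73, 3.27, 3.42, 3.97 and 4.16 in the controls, an SD of 0.59, whereas the SD was 0.12 at 25, 0.19 at 50 and 0.23 at 75 mg/kg/day. The exposed means of 4.30, 4.07 and 4.48 all lay inside the control range, and 75 mg/kg/day differed from control by 0.57 log2 units (SE 0.20, adjusted p = 0.294). The dim probe gave 3.51, 3.30, 3.07, 2.75 and 2.39 in the controls and 3.73, 3.52, 3.29, 3.72 and 3.72 at 75 mg/kg/day, with 4 of 5 mice above all controls and a difference of 0.59 log2 units (SE 0.16, adjusted p = 0.171). In the controls the bright ratio exceeded the dim one by -0.03 to 1.77 (SD 0.73), so in these mice the 2 probes did not order the animals alike. Control replicate 5 had the second highest bright ratio and the lowest dim ratio. The difference between the probes did not change with exposure beyond its spread at any dose (exact permutation test, two-sided, adjusted p = 0.937 for each over 6 tests with those of *Gstm7*). Within slides the change of the bright probe at 75 mg/kg/day was 0.45, 0.13 and -0.49 and that of the dim probe 0.77, 0.89 and 0.22.

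*Gstm7*, also read by 2 probes, gave closer values. The bright probe measured 3.11, 2.87, 2.86, 3.30 and 2.98 in the controls and 3.74, 3.80, 3.64, 3.27 and 3.50 at 75 mg/kg/day. The dim probe measured 2.50, 2.84, 2.46, 2.90 and 2.23 in the controls and 3.06, 3.27, 3.20, 2.90 and 2.82 at 75 mg/kg/day, although its reference signal was well above background on 18 of 20 arrays. With either probe 4 of 5 mice lay above all controls, by 0.57 log2 units on average (SE 0.17, adjusted p = 0.227) for the bright and 0.47 (SE 0.14, adjusted p = 0.233) for the dim one. Within slides both were higher in the exposed liver on 3 of 3 slides, by 0.50 to 0.66 and 0.37 to 0.97.

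*Gstm6* differed less between the groups. Its controls gave 4.81, 4.17, 4.28, 4.26 and 4.34, and the 75 mg/kg/day mice 4.73, 4.69, 4.92, 4.64 and 4.80. Only 1 of 5 exposed mice exceeded control replicate 1, which stood apart from the other controls, and the log2 fold change was 0.38 (SE 0.13, adjusted p = 0.290). *Gstm2* gave 0.95, 1.16, 1.10, 1.56 and 1.65 in the controls and 1.58, 1.74, 1.58, 1.42 and 1.38 at 75 mg/kg/day, where the groups overlapped (log2 fold change 0.26, SE 0.16, adjusted p = 0.555). *Gstm5* was the one member at or below the level of the reference RNA, with -0.53, -0.15, -0.14, -0.12 and -0.35 in the controls and -0.38, -0.30, 0.33, -0.13 and 0.17 at 75 mg/kg/day (log2 fold change 0.20, SE 0.14, adjusted p = 0.631). For *Gstm2* and *Gstm5* the 95% confidence intervals, -0.07 to 0.58 and -0.10 to 0.49, include no change as well as a change near that of *Gstm7*.

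**Figure D2:**
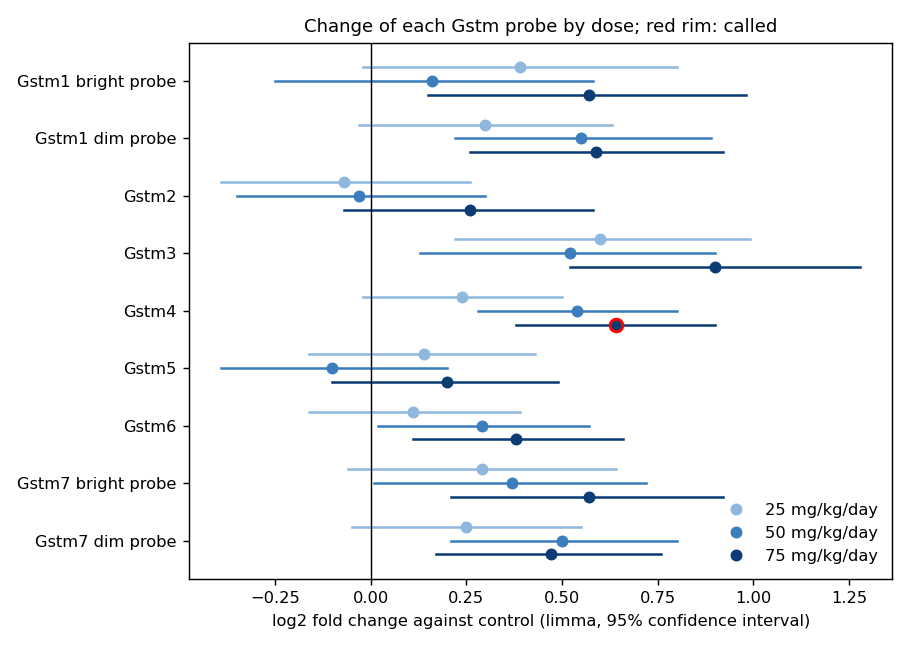
Log2 fold change against the controls (horizontal axis) of each family probe at 25, 50 and 75 mg/kg/day, with the 95% confidence interval from limma and a red rim for the called value. At 75 mg/kg/day the intervals of 7 of 9 probes lie above 0, and those of *Gstm2* and *Gstm5* cross it.

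At the lowest dose the changes on the log2 scale ran from -0.07 for *Gstm2* to 0.60 for *Gstm3*. In the limma fit 0 of 9 probes were called and 1 had an unadjusted p under 0.05, as 7.8% of all probes had, and by the Fs statistic with residual shuffling 0 were called too. At 50 mg/kg/day the changes ran from -0.10 for *Gstm5* to 0.55 for the dim *Gstm1* probe, with 0 of 9 called by either test and 6 of 9 at an unadjusted p under 0.05, as were 6.7% of all probes. At 75 mg/kg/day 7 of 9 and 11.2% of all probes were below that limit. No family probe lay above all controls in all 5 mice at 25 or at 50 mg/kg/day, where 0.56% and 0.52% of all probes did. The doses themselves were not separated. Between 25 and 75 mg/kg/day 0 of 9 probes were called, against 0.0549% of all probes, and the largest difference was the 0.40 (SE 0.13) of *Gstm4* at an unadjusted limma p of 0.00452. For *Gstm4* the order of the means followed the dose, and no neighbouring doses differed by the test (50 over 25 mg/kg/day 0.30, SE 0.13, and 75 over 50 mg/kg/day 0.10, SE 0.13). For *Gstm3* and the bright *Gstm1* probe the mean at 25 was above that at 50 mg/kg/day, by 0.09 (SE 0.18) and 0.23 (SE 0.20).

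Whether members answered differently was tested on the 21 pairs of genes, by the difference of their log2 ratios within an array at 75 mg/kg/day and in the controls. Exact permutation over 252 relabellings left 0 of 21 pairs at an adjusted p under 0.05, with 2 at an unadjusted p under 0.05. The lowest p was that of *Gstm3* against *Gstm6*, whose changes differed by 0.52 (exact p = 0.0159, adjusted p = 0.333). *Gstm3* exceeded *Gstm5* by 0.70 (exact p = 0.0397, adjusted p = 0.361) and *Gstm4* exceeded *Gstm5* by 0.44 (exact p = 0.0714, adjusted p = 0.361). With 252 relabellings and adjustment over 21 pairs, a single pair could not have passed. These tests therefore could not decide whether the called *Gstm4* differed from another member.

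The change of a probe went along with how far its liver signal lay above the reference, and this concerns the family because 7 of its 9 probes have mean log2 ratios between 2.89 and 4.57. Among other probes, the median change at the highest dose was 0.00 log2 units for mean ratios of -1 to 1 (18897 probes), 0.18 for ratios of 3 to 4 (494 probes), 0.28 for ratios of 4 to 5 (311 probes) and 0.34 above 5 (402 probes). The medians in the last 3 ranges were 0.16, 0.21 and 0.28 at 25 mg/kg/day and 0.12, 0.16 and 0.23 at 50 mg/kg/day. Over the 1207 probes outside the family with a mean ratio of at least 3, the median ratio of an array was 4.05 to 4.48 in the controls and 4.30 to 4.58 at 75 mg/kg/day. Within its own range of ratios *Gstm3* stood at percentile 98.7, the bright *Gstm1* probe at 94.9, *Gstm4* at 94.5 and *Gstm6* at 70.4 of the changes. When each array's curve of deviation against mean ratio was removed, a setting added after the data had been seen, the log2 fold changes at 75 mg/kg/day were 0.68 for *Gstm3* (adjusted p = 0.129), 0.44 for *Gstm4* (0.195), 0.35 and 0.42 for *Gstm1*, 0.39 and 0.32 for *Gstm7* and 0.14 for *Gstm6* (0.63). No probe was then called and no trend passed, and all 9 differences stayed above 0. How much of the family's change was shared with liver-rich transcripts at large was not tested.

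**Figure D3:**
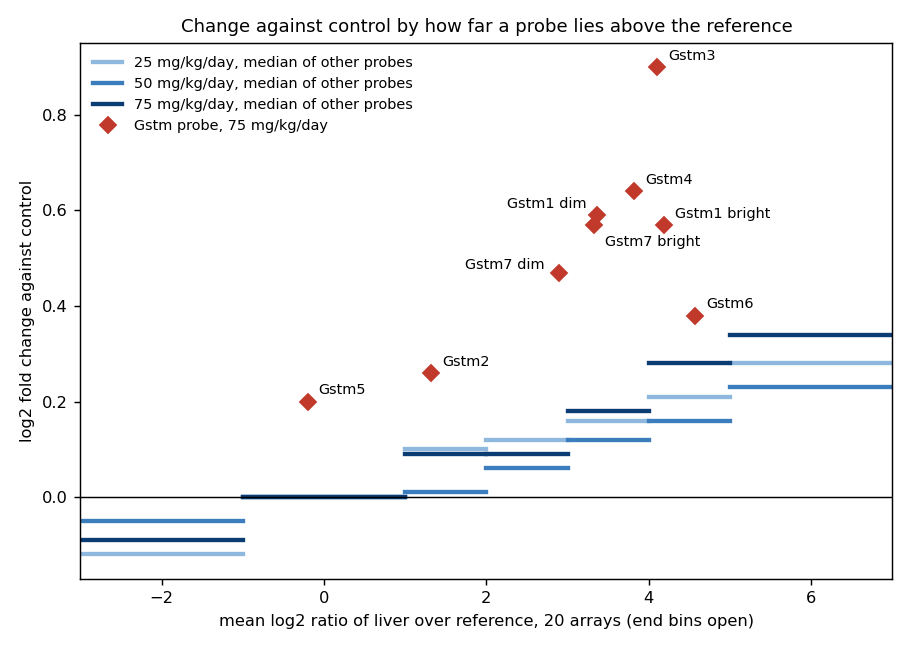
Log2 fold change against the controls (vertical axis) against the mean log2 ratio over 20 arrays (horizontal axis), with lines for the median of all other present probes in each range at 3 doses and red diamonds for the family probes at 75 mg/kg/day. The lines climb to 0.34 above a ratio of 5, and every diamond lies above the line of its range.

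The ratio was also read by channel, without a test between members. The reference RNA was the same on all arrays, so its signal should carry no effect of dose, yet the Cy3 signal of *Gstm3* at 75 mg/kg/day stood at -0.42 log2 units against the controls (SE 0.12) and that of the bright *Gstm1* probe at -0.45 (SE 0.18), with an adjusted p of 1 for both. After adjustment 0 of 9 family probes and 0 of 27346 probes differed in the reference channel, where 2 and 1175 had an unadjusted p under 0.05. The Cy3 values of *Gstm3* were 12.26, 12.53, 12.32, 12.65 and 12.48 in the controls and 12.15, 12.09, 12.03, 12.23 and 11.66 at 75 mg/kg/day. In the liver channel alone, after quantile normalization, *Gstm3* was higher by 0.54 (SE 0.14), the bright *Gstm1* probe by 0.21 (SE 0.11), and the dim *Gstm1* probe by 0.36 (SE 0.17). For *Gstm4* the liver channel gave 0.66 (SE 0.21) and the reference channel 0.14 (SE 0.12), and its liver values at 75 mg/kg/day, 11.71, 11.58, 10.74, 11.94 and 11.53, overlapped the controls at 10.42, 11.11, 10.85, 11.08 and 10.72 through a single mouse, replicate 18. By liver signal alone no member was called (adjusted p = 0.334 for *Gstm4* and 0.207 for *Gstm3*), and the probes with mean ratios above 5 had a median change of 0.00.

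**Figure D4:**
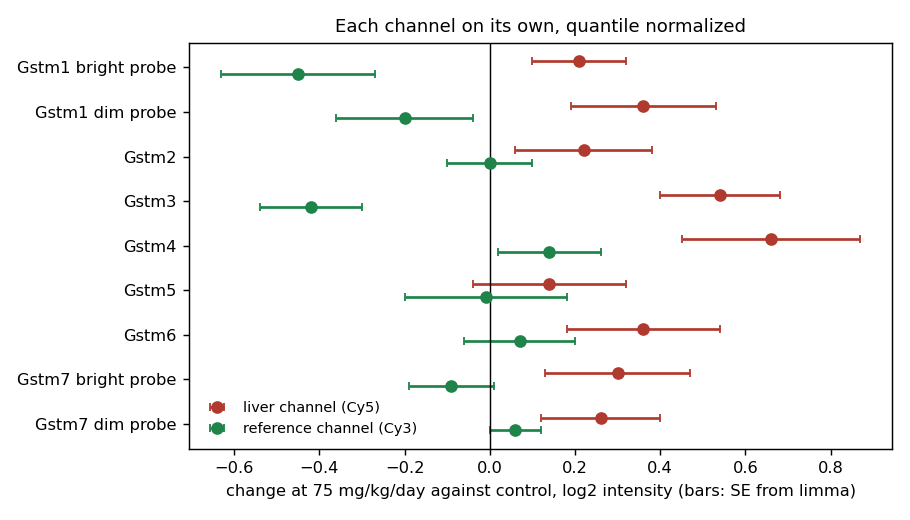
Change at 75 mg/kg/day against the controls in log2 intensity (horizontal axis) of each family probe, in the liver channel (red) and the reference channel (green) on their own, with SE from limma. All liver points lie to the right of 0, and the green points of *Gstm3* (-0.42) and the bright *Gstm1* probe (-0.45) lie farthest to the left.

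After group means were subtracted, the pair of *Gstm7* probes varied together over the 20 arrays (r = 0.63) and the pair of *Gstm1* probes hardly did (r = 0.11). The dim *Gstm1* probe went with *Gstm3* (r = 0.63), and the bright *Gstm7* probe with *Gstm6* (r = 0.61) and *Gstm4* (r = 0.59). Over the 34 pairs of probes of different genes the median was 0.19, from -0.53 for the dim *Gstm1* probe and *Gstm2* up to 0.63. These are descriptions over arrays that share slides and a reference RNA. The family mean, the average of the centred ratios of the 7 genes, was -0.07, -0.38, -0.35, -0.19 and -0.25 in the controls and 0.18, 0.21, 0.24, 0.25 and 0.38 at 75 mg/kg/day.

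None of the measured genes on either side of the family was called, where 25 of all 12986 genes were called higher and 1 lower at 75 mg/kg/day. How far these neighbours lay above the reference was not set beside their changes. Whether the change ends at the edges of the family was not tested. *Ahcyl1*, *Csf1* and *Eps8l3* before it had log2 fold changes at 75 mg/kg/day of -0.09, -0.09 and -0.14, and *Ampd2* and *Gnat2* after it 0.12 and -0.26, with adjusted p of 0.522 to 0.768. *Gm12500*, beside *Ampd2*, had no present probe. By position, the largest differences inside the family were those of *Gstm3* in its middle and *Gstm4* at one end, with *Gstm2* at 0.26 between *Gstm3* and *Gstm1*.

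**Figure D5:**
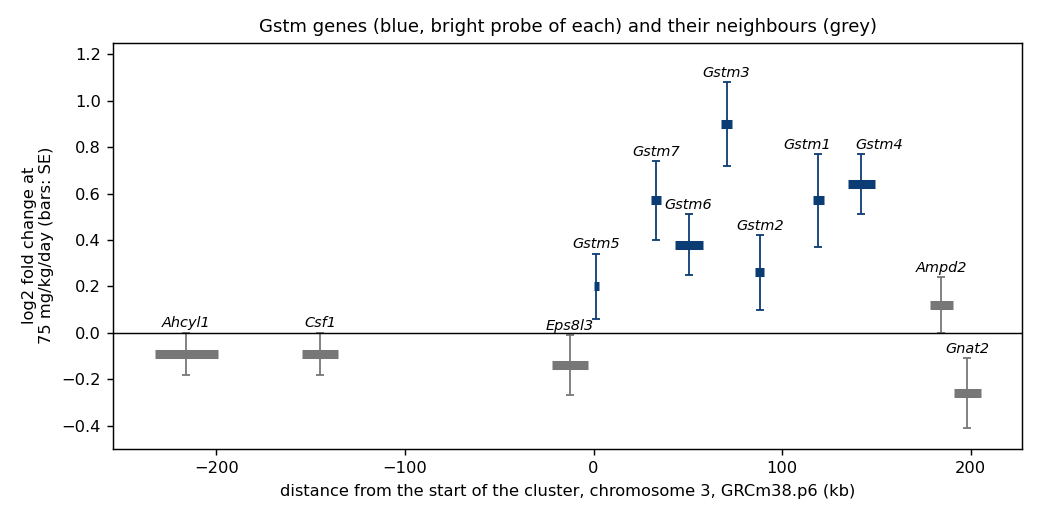
Log2 fold change at 75 mg/kg/day with SE (vertical axis) against distance from the start of the family in kb (horizontal axis), with bars as long as each gene. The 7 family genes, in blue and each by its brightest probe, lie between 0.20 and 0.90, and the 5 measured neighbours, in grey, between -0.26 and 0.12.

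Among 12802 other genes, the one whose ratio followed each member most closely over the 20 arrays was searched by Pearson's r. It was *Gpx7*, a peroxidase of the endoplasmic reticulum, for *Gstm4* (r = 0.84, log2 fold change at 75 mg/kg/day 0.66, adjusted p = 0.0547), and *Gamt*, the enzyme of the last step of creatine synthesis, for *Gstm3* (r = 0.89, 0.57, adjusted p = 0.164). *Gstm6* was followed by *Acss2*, a cytosolic acetyl-CoA synthetase (r = 0.89), and *Gstm7* by *Nags*, which makes the activator of the urea cycle (r = 0.86). *Gstm1* was followed by *Wnt2* (r = 0.77), *Gstm2* by *Insl6* (r = 0.86) and *Gstm5* by *Ap5m1* (r = 0.89). The family mean was followed by *Tlcd2* (r = 0.89), *Hsd17b6* (r = 0.86), *Ces1g* (r = 0.84), *Acss2* (r = 0.83) and *Cyp2b9* (r = 0.83). The last is a cytochrome P450 listed here among the targets of CAR and PXR (log2 fold change 1.08, SE 0.23, adjusted p = 0.0715), and its regulation by CAR was not tested. None of these most similar genes was called, where 25 of all 12986 genes were called higher at 75 mg/kg/day. Group differences were left in these ratios, and the highest of 12802 values of r over 20 arrays is large through selection alone. Whether any of these genes is regulated together with a member was not tested.

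Other classes of the superfamily were compared by the same fit. Of all 12986 genes with a present probe, 25 were called higher and 1 lower at 75 mg/kg/day, and 6476 lay above 0. Against so low a share, 0 called in a short list is the usual outcome and sets no list apart from the family. Of 16 further glutathione transferases 14 had a present probe and 0 were called at 75 mg/kg/day, with 10 of 14 above 0 and a median log2 fold change of 0.25 against 0.57 in the Mu family. The highest were the microsomal *Mgst1* (0.58, SE 0.21, adjusted p = 0.308) and the theta class *Gstt3* (0.57, SE 0.17, adjusted p = 0.213). The alpha class *Gsta1*, *Gsta2*, *Gsta3* and *Gsta4* stood at -0.14 (SE 0.27), 0.05 (SE 0.27), 0.40 (SE 0.29) and 0.05 (SE 0.20). Genes of glutathione synthesis and turnover had a median of 0.07, with 0 of 10 called. Among 12 present NRF2 targets outside the transferases the median was 0.19 and 1 was called, the quinone reductase *Nqo1* (log2 fold change 0.68, SE 0.13, adjusted p = 0.0386), which is also the 1 called of 6 present targets of the aryl hydrocarbon receptor (median 0.43). *Nqo1* had a mean log2 ratio of -1.82 in the controls, and other probes with mean ratios below -1 had a median change of -0.09 at 75 mg/kg/day. The source of the rise of *Nqo1* was not tested. All 12 targets of CAR and PXR lay above 0 with a median of 0.45, and 0 were called. Their mean log2 ratios in the controls ran from 0.31 to 5.86. Among other probes 85.9% of those with mean ratios of 4 to 5 and 92.3% of those above 5 lay above 0 too. How much of the change of these targets was shared with liver-rich transcripts was not tested.

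Markers of liver cell types were read beside the family, and of these only *Lyve1* and *Marco* were called, where 25 of all 12986 genes were called higher. The 7 present hepatocyte markers, liver-rich with mean log2 ratios of 3.56 to 7.53 in the controls, were all above 0 at 75 mg/kg/day (median 0.44, 0 called). Their mean centred ratio ran from -0.91 to 0.48 in the control arrays and from -0.09 to 0.23 at 75 mg/kg/day. The 7 sinusoidal endothelial markers ran from -0.70 to -0.14 and from 0.02 to 0.57, with a median change of 0.35. Their mean includes *Lyve1*, at 2.23 (SE 0.40, adjusted p = 0.0189), where the others lay between 0.22 and 0.58 and were not called. The 6 Kupffer cell markers ran from -0.57 to -0.09 and from -0.26 to 0.52, with a median change of 0.10. Among them *Marco* stood at 2.19 (SE 0.30, adjusted p = 0.00148), where the other 5 lay between 0.03 and 0.16. Median changes were 0.31 for pericentral and 0.36 for periportal hepatocyte markers, 0.37 for stellate cell and fibroblast markers, -0.17 for bile duct markers and 0.05 for lung epithelium markers, with 0 called in each. Their part in the family's change was not tested.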

How the data were processed

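Liver RNA (Cy5) of 20 mice, 5 per group, was hybridized with reference RNA (Cy3) to 1 array each. The authors deposited spot intensities on a linear scale without normalization, and log2 ratios normalized by LOWESS within each array, the latter used as an alternative. File headers name Agilent Feature Extraction 10.1.1.1. Median intensities were background corrected (normexp, offset 50), loess normalized and averaged per probe in R 4.3.3 with limma 3.58.1 (helped by statmod 1.5.0 and, for reading, data.table version 1.17.8). Python 3.11.15 and matplotlib 3.10.9 drew the figures. Outlier spots (weight 0) were left out. Presence followed the study's rule (negative controls, 5% trim, 3 trimmed SDs), giving 27346 probes. All groups entered 1 limma fit with Benjamini-Hochberg adjustment per contrast, two-sided. MAANOVA was not used here, and an Fs statistic with 100 residual shufflings was run instead. The tests were checked on simulated data. The paper left out 1 sample without naming it, and all 20 were kept.

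Probes were named through RefSeq accessions (23375 probes). The bright *Gstm7* probe was named from the study's supplementary annotation. Groups came from the labels, which give 25 mg/kg/day as the low dose, where the series' design text gives a slightly lower one. The labels do not say more of the replicates than that they are separate mice, and p-values measure the spread among them. The number of arrays limits precision. Named genes were all members, for each member and for the family mean the genes of highest correlation, the called members of the gene lists, and 3 neighbours on each side of the family. *Gsta1*, *Gsta2*, *Gsta3*, *Gsta4*, *Gstt3*, *Mgst1* and the lung epithelium markers were named after their values were seen. The members and lists were chosen with earlier results of these data known. Alternatives changed the background correction, normalization, filters, slide, array weights, test and the arrays used.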

Additional observations from a re-analysis of the deposited data

Results flagged for a closer look

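In 36 sets of 5 arrays (9 probes in 4 groups), 4 held an array whose distance to the nearest other array exceeded 0.71 of the whole range, and chance alone would mark about 1 in 20 sets. *Gstm4* in control replicate 2 was 3.69, the nearest control being 3.43. *Gstm6* in control replicate 1 was 4.81, against 4.34 for the next. *Gstm2* at 50 mg/kg/day in replicate 15 was 1.84, against 1.18. The bright *Gstm7* probe at 25 mg/kg/day in replicate 7 was 2.75, against 3.37. No reason was tested for these values.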

How the results depend on the processing

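Over 33 alternatives every family difference at 75 mg/kg/day stayed above 0, and no probe other than *Gstm4* (called in 14) and *Gstm3* (called in 6) was called at any dose. The number of family probes called at 75 mg/kg/day, 1 as reported, was 2 without background correction, with outlier spots kept, with slide as a random block and with array weights, where *Gstm3* joined *Gstm4*. It was 0 with the scanner software's processed signals, the authors' log2 ratios, the liver channel alone, the control and that dose alone, slide as a fixed block, the Fs statistic and the dependence on the mean ratio removed, and 0 to 1 when 1 array was left out. Over all alternatives the log2 fold change of *Gstm4* was 0.44 to 0.70 and that of *Gstm3* 0.54 to 1.03. The number of probes with a dose trend, 1 as reported, was 0 with processed signals, the liver channel alone and the mean-ratio dependence removed, 2 with slide as a fixed block (*Gstm3* and *Gstm4*) and with array weights (the dim *Gstm1* probe and *Gstm4*), and 3 with slide as a random block. The cause of these moves was not tested. Over all probes, 36 were called higher and 1 lower at 75 mg/kg/day, against 5 and 0 with that dose and control alone, 56 and 6 with processed signals, 50 and 8 or 57 and 5 with slide as a fixed or random block, and 65 and 7 without 75 mg/kg/day replicate 19. Aquantile normalization between arrays leaves log ratios as they are and is not counted. The pair tests, in which a single pair could not have passed, and the reference channel gave 0 under every alternative run for them. With 5 mice per group, *Gstm4* and *Gstm3* lie at the edge of what could be called.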
